A study of Mus musculus with 2 samples.

Results

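The cells described here are 214 myeloid cells of injured mouse kidney, picked out of 19478 kept cells because they carried transcripts of genes that mark classical monocytes. A cell was taken when Ly6c2, Ccr2 and Plac8 together gave at least 3 unique molecular identifiers (UMIs, the counted RNA molecules of a cell), with at least 1 from Ly6c2 or Ccr2, and when Lyz2, the lysozyme gene of myeloid cells, gave at least 3. It was left out when C1qa, C1qb and C1qc, complement genes of tissue macrophages, together gave 5 or more. It was also left out when the neutrophil genes S100a8 and S100a9 together gave 20 or more, or when Cd3e, Cd3g, Ncr1 or Flt3, genes of lymphoid and dendritic cells, gave any. The levels of these genes therefore chose the cells and are given as a description. The 43 cells of the control library and the 171 cells of the haplodeficient library are called the gated cells below, and members in the figures.

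Both libraries came from kidneys after unilateral ischaemia-reperfusion injury, in which the renal artery is clamped and then released. The mice of both groups received 4 tamoxifen injections after the injury and were analysed on day 14. The control library is labelled Cre-, and the haplodeficient library is labelled Cdh5-CreERT2; Phd3f/+. Cdh5 is a gene of endothelial cells, and its promoter drives a Cre recombinase that tamoxifen activates, so 1 of the 2 Phd3 alleles is meant to be lost in endothelial cells and not in the gated cells. Phd3 is listed as Egln3, an oxygen-sensing prolyl hydroxylase that marks HIF proteins for destruction. The labels do not state the age or sex of the mice, how many mice went into a library, or whether the control mice carried the floxed Phd3 allele. With 1 library per group, no test between the groups was possible. Intervals given below are exact 95% intervals for counting error alone, and they say nothing about the spread between animals.

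Classical monocytes are made in the bone marrow, leave it by way of the chemokine receptor Ccr2, and enter injured tissue from the blood. There they can turn into macrophages or into antigen-presenting cells rich in major histocompatibility complex (MHC) class II, while others stay in the vessels and become non-classical monocytes, which patrol the endothelium, lose Ly6c2 and depend on the transcription factor Nr4a1. In the kidney after ischaemia, incoming monocytes are known both for early inflammatory signals and for later contributions to repair or to scarring.

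The libraries held 134190236 UMIs (control) and 114668145 UMIs (haplodeficient). Kept cells had a median of 9160 and 5862 UMIs, with 10.2% and 2.72% of UMIs from mitochondrial genes. The 43 gated control cells held 400263 UMIs (2896 to 41490 per cell, median 7317), and the 171 gated haplodeficient cells held 1400921 (1229 to 60317, median 6360). Mitochondrial shares of the gated cells had medians of 2.89% and 1.58%. Barcodes kept in both libraries numbered 28, and none of them was a gated cell.

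Measured against its own markers, the gated population was broader than classical monocytes. Ly6c2, the gene of the surface marker that defines classical monocytes in mice (chromosome 15, 75108158 to 75111970, minus strand, GRCm38), had a UMI in 14 of 43 control cells (32.6%) and in 90 of 171 haplodeficient cells (52.6%). Ccr2 (chromosome 9, 124101950 to 124113557, plus strand) had a UMI in 38 and 143 cells. Plac8 (chromosome 5, 100553725 to 100572245, minus strand) had a UMI in 21 and 149 cells. All 3 genes were seen together in 9 control and 62 haplodeficient cells, whereas 22 cells in each library were chosen by Ccr2 alone. Ly6c2 and its neighbour Ly6c1 are near-identical, so the deposited counts of this gene may be split between them.

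A share of cells with a UMI depends on depth, so cells were also compared at equal depth. After thinning each cell to 2500 UMIs, Ly6c2 was seen in 27.9% of control cells (12 of 43) and in 39.8% of haplodeficient cells (66 of 166, with 5 shallower cells left out). In Lrp2-positive proximal tubule cells, which should lack it, Ly6c2 had a UMI in 4 of 3067 control cells (median 14180 UMIs) and in 1 of 476 haplodeficient cells (median 12068 UMIs). Plac8 had a UMI in 45.2% and 56.7% of those tubule cells, so a Plac8 UMI alone does not set a myeloid cell apart in this tissue. Ccr2 had a UMI in 10 and 1 of them.

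Cells stood on either side of each threshold of the gate. Gate genes summed to 3 UMIs, just inside, in 3 control and 6 haplodeficient cells, and to 2, just outside, in 5 and 7 cells that met the other conditions. Lyz2 stood at 3 in 2 and 2 cells and at 2, just outside, in 2 and 7. The complement sum was 4 in 1 and 1 cells and 5 in 1 and 6 cells outside. A sum of 5 to 19 kept out 18 control and 20 haplodeficient cells, and a sum of 20 or more kept out 211 and 283. Of the gated cells, 30 control and 140 haplodeficient cells had no complement UMI at all. Flt3 alone kept out 26 and 21 cells.

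Markers of other cell types separated 21 barcodes from the rest. These barcodes, called mixed here, carried 10 or more UMIs of 8 endothelial markers (3 control, 10 haplodeficient) or of 11 distal nephron and collecting duct markers (2 control, 6 haplodeficient). They held 492 of the 510 endothelial marker UMIs found in the gated control cells and 1594 of 1686 in the haplodeficient cells. No other gated cell had more than 3 (control) or 9 (haplodeficient) endothelial marker UMIs. Mixed barcodes were deep, with medians of 16840 and 19190 UMIs, and gave 28.0% and 25.8% of all UMIs of the gated cells. A doublet caller marked 2 of the 5 and 7 of the 16. Whether these barcodes hold 2 cells each was not tested, and the limit of 10 UMIs was set after their values were seen. Many results below are given with and without them, and the others with them only.

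Markers of T and NK cells were near 0, while those of other myeloid cells were not. T cell markers summed to 3 UMIs in control and 15 in haplodeficient cells over 8 genes, with Cd3d, Trac, Cd4 and Cd8a at 0 in control. The 6 NK cell markers summed to 0 and 5 UMIs, with Gzma, Klre1 and Eomes at 0 in both libraries. Neutrophil markers outside the rule summed to 55.0 and 201 CPM (the UMIs of a gene as a rate over the summed UMIs of the cells, per 1e6), with Ly6g, Retnlg, Camp and Ltf at 0 in both. Among genes outside the gate, macrophage markers summed to 2303 and 2292 CPM and type 2 dendritic cell markers to 1134 and 764 CPM. Plasmacytoid dendritic cell markers summed to 412 and 535 CPM and those of type 1 dendritic cells to 357 and 298 CPM. All other kept cells held 2499 and 5248 CPM of the macrophage and 131 and 196 CPM of the type 2 dendritic markers. They held 1047 and 1258 CPM of the plasmacytoid and 114 and 118 CPM of the type 1 dendritic markers. Their neutrophil markers summed to 84.9 and 191 CPM. Of these lists, only those of type 1 and type 2 dendritic cells were higher in the gated cells in both libraries. In haplodeficient cells, 1 cell gave 73 of the 282 neutrophil marker UMIs. Of the plasmacytoid markers, Ccr9 and Cox6a2 were at 0 in control and Siglech and Cd300c in haplodeficient cells. The part of these other myeloid markers in the results was not tested. Proximal tubule markers summed to 635 and 493 CPM, and an estimate from genes of other cell types put free RNA at 2.98% and 2.73% of the UMIs in the gated cells. That estimate is rough, since it used 20 and 27 marker genes whose values ran from 0 to 67.2% and from 0 to 19.2%.

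Gated cells made up 0.455% of kept cells in the control library (43 of 9452, interval 0.329 to 0.612) and 1.71% in the haplodeficient library (171 of 10026, interval 1.46 to 1.98). Among cells with a UMI of Ptprc, the pan-leukocyte gene, the shares were 2.54% (42 of 1651, interval 1.84 to 3.42) and 4.12% (166 of 4029, interval 3.53 to 4.78). On either denominator the share was higher in the haplodeficient library by more than counting error. The kinds of other cells differed as well, with 3067 and 476 Lrp2-positive tubule cells among the kept cells and 832 and 1405 cells rich in complement C1q. Genotype, animal and library cannot be told apart in these shares.

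The 15 genes that led the gated cells over all other kept cells in both libraries were, in order, Chil3, Ifitm6, Hp, Adgre4, F10, Emilin2, Ms4a4c, Ear2, S100a4, Gpr141, Fgr, Itgal, Gm9733, Gda and Cybb. Chil3, a chitinase-like protein made by monocytes, gave 131 UMIs in 11 of 43 control cells (327 CPM, interval 274 to 388) and 689 UMIs in 92 of 171 haplodeficient cells (492 CPM, interval 456 to 530). All other kept cells held 0.483 and 3.40 CPM of it. Adgre4, an adhesion receptor of circulating monocytes, stood at 125 and 317 CPM against 2.48 and 13.8 CPM elsewhere. Hp, which encodes the haemoglobin-binding haptoglobin, stood at 322 and 589 CPM, but cells rich in S100a8 and S100a9 held 386 and 875 CPM of it, so Hp does not set the gated cells apart from them. Nor do Emilin2, at 142 and 283 CPM against 163 and 264 CPM there, and Fgr, at 240 and 355 CPM against 176 and 342 CPM. Ifitm6 and Itgal were also present in those cells, at 85.3 and 88.8 CPM and at 118 and 150 CPM.

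Some leading genes were spread over nearly all gated cells and others over few. S100a4, a calcium-binding protein of motile cells, had a UMI in 40 of 43 and 157 of 171 cells, at 1489 and 1518 CPM. Flt3-positive cells, taken with at least 1 Flt3 UMI and 10 or more of Cd74 under the gate's other exclusions, held 446 and 567 CPM of it. Cybb, the catalytic subunit of the phagocyte oxidase, had a UMI in 40 and 162 cells, at 757 and 1230 CPM. Ear2, a ribonuclease, had a UMI in 25 and 96 cells, and F10, coagulation factor X, in 22 and 113. Leaving out the mixed barcodes kept 14 of the 15 genes in the leading set.

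The gated cells did not form 1 even population in their antigen-presentation genes. Cd74, H2-Aa, H2-Ab1 and H2-Eb1, the invariant chain and the chains of MHC class II, together took from 0 to 6.17% of a cell's UMIs in the control library (median 3.13%) and from 0 to 6.94% in the haplodeficient library (median 0.333%), mixed barcodes left out. Below 0.5% lay 12 control and 85 haplodeficient cells, and at 2% or more lay 24 and 47. Between them lay 2 of 38 control and 23 of 155 haplodeficient cells. With so few control cells, whether the libraries differ in the middle of the range was not tested. A line at 1%, drawn after these values were seen, divides MHC II-poor from MHC II-rich cells. These are ranges of a measured share, not cell types, and the 4 genes that set them are no finding between them.

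**Figure D1:**
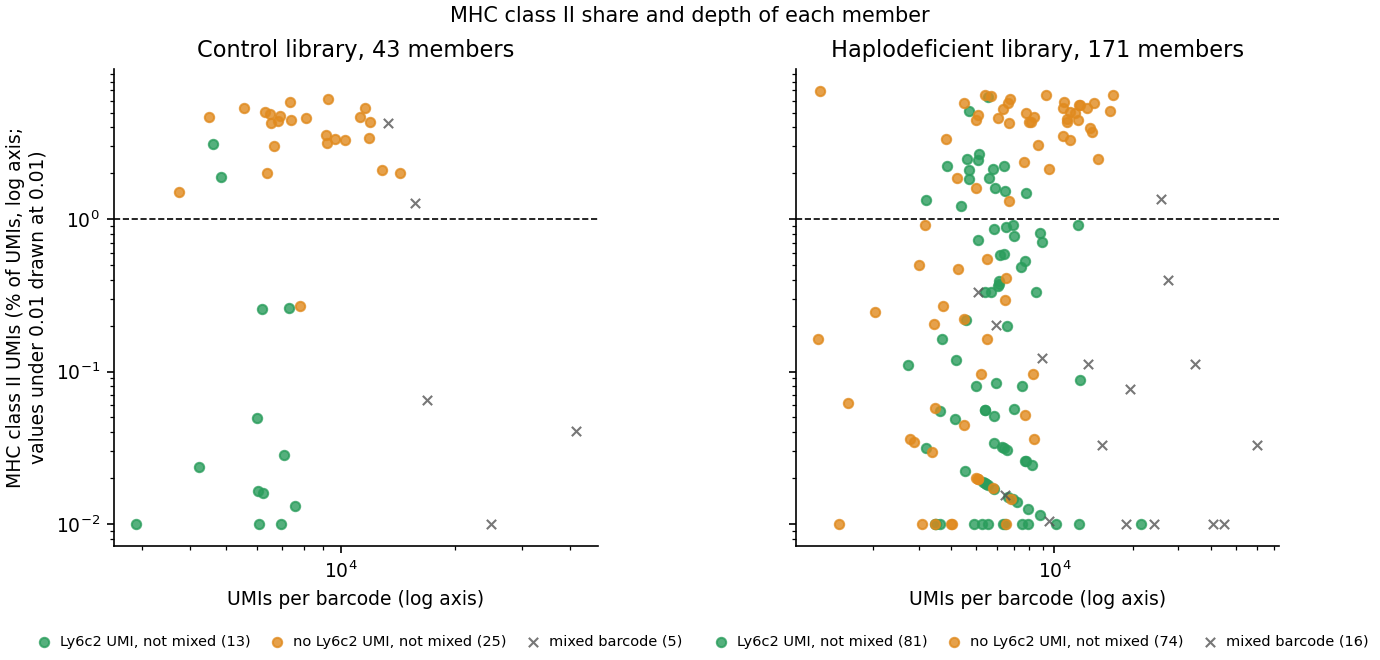
Each point is 1 gated cell: the horizontal log axis gives its UMIs and the vertical log axis the share of them from Cd74, H2-Aa, H2-Ab1 and H2-Eb1, with colour for a Ly6c2 UMI, crosses for mixed barcodes and the dashed line at 1%. Points with Ly6c2 lie mostly below the line, 11 of 13 in the control and 65 of 81 in the haplodeficient library, while mixed barcodes reach the highest depths.

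Ly6c2 went with the poor range. It is a gate gene, and a cell without Ly6c2 could enter only with Ccr2, so the gate itself shaped these counts and they are a description. It had a UMI in 11 of 12 MHC II-poor control cells and in 2 of 26 MHC II-rich ones, and in 65 of 98 and 16 of 57 in the haplodeficient library. Medians of depth were 6209 and 5762 UMIs in the poor range and 7382 and 6711 in the rich range, so the poor cells were the shallower ones in both libraries.

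The excess in the haplodeficient library lay mostly in the poor range. MHC II-poor cells with Ly6c2 numbered 11 in the control library (0.116% of kept cells, interval 0.0581 to 0.208) and 65 in the haplodeficient library (0.648%, interval 0.501 to 0.826). MHC II-poor cells without Ly6c2 numbered 1 (0.0106%) and 33 (0.329%, interval 0.227 to 0.462). MHC II-rich cells numbered 26 (0.275%, interval 0.180 to 0.403) and 57 (0.569%, interval 0.431 to 0.736). Among cells with Ptprc, MHC II-poor cells made up 0.727% and 2.43%, and MHC II-rich cells 1.57% and 1.34%, and the intervals of the latter overlap. MHC II-poor cells were thus 27.9% of the gated control cells (interval 15.3 to 43.7) and 57.3% of the gated haplodeficient cells (interval 49.5 to 64.8).

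**Figure D2:**
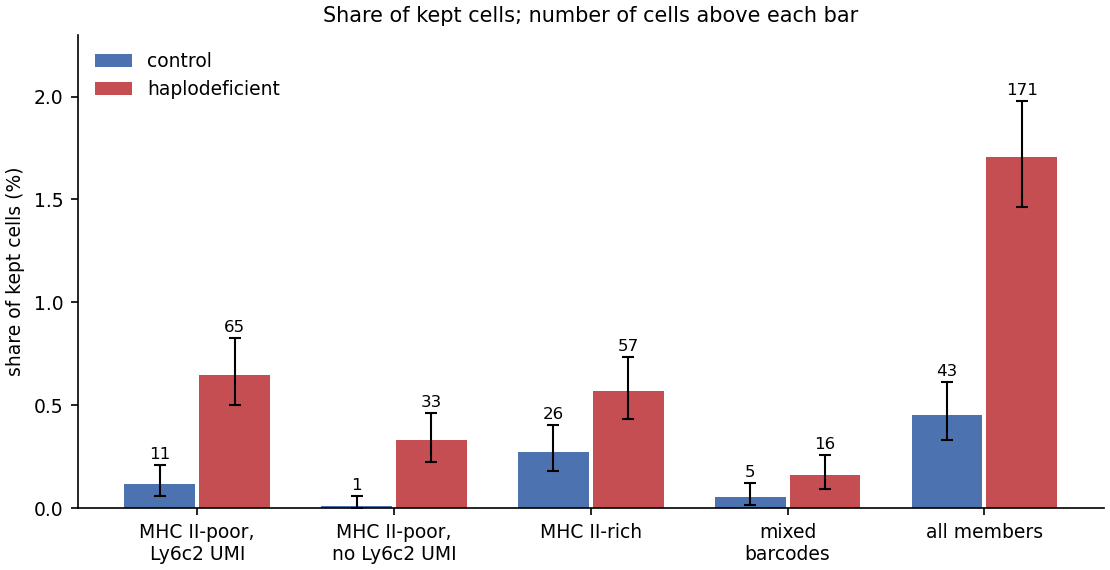
Bars give the share of kept cells in each library, on an axis from 0, for the 4 kinds of gated barcode and for all of them, with exact 95% intervals for counting error and the number of cells above each bar. Among the 4 kinds, the gap in percentage points is widest for MHC II-poor cells with Ly6c2, 11 against 65 cells.

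Genes that were not used to draw the line differed widely across it. Of 1531 genes that in each library averaged 50 CPM or more over the 2 ranges and had 30 UMIs or more in them together, 85 were higher in MHC II-poor cells in both libraries (5.55%) and 69 were lower (4.51%), by at least 1 on the log2 scale with 5 CPM added and with counting intervals that did not overlap. A gene at 0 in 1 range could enter through the other, so these counts are a description. Chil3 stood at 1678 CPM in poor and 18.7 CPM in rich control cells, and at 977 and 95.6 CPM in haplodeficient cells. Hp stood at 1557 against 56.2 CPM and at 1126 against 226 CPM. Itgal, the alpha chain of the integrin LFA-1 that binds endothelium, stood at 671 against 32.8 CPM and at 670 against 185 CPM. Gsr, glutathione reductase, stood at 819 against 65.6 CPM and at 765 against 117 CPM.

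Some of these values rest on few cells. Saa3, an acute-phase serum amyloid named after its values were seen, gave 104 UMIs in 4 control cells and 128 UMIs in 14 haplodeficient cells. All 104 control UMIs were in MHC II-poor cells, and 44 of them were in 1 cell. Vcan and F13a1, a matrix proteoglycan and a clotting factor chain found in classical monocytes, gave 21 and 27 UMIs in the 12 MHC II-poor control cells and 1 UMI each in the 26 MHC II-rich ones.

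MHC II-rich cells carried genes that were at or near 0 in the poor cells. Mgl2, a lectin of type 2 dendritic cells and some macrophages, gave 244 UMIs in 17 of 26 MHC II-rich control cells and 499 UMIs in 22 of 57 haplodeficient ones, and none in any MHC II-poor cell of either library. Dcstamp, a membrane protein needed for cell fusion, gave 232 UMIs in 21 cells and 305 UMIs in 24 cells, again with none in the poor range. A count of 0 in 579285 UMIs of the haplodeficient poor range is a firmer statement than a count of 0 in the 74494 UMIs of the control poor range. Cd209a, a lectin of monocyte-derived dendritic cells, stood at 201 and 189 CPM in rich cells and at 0 and 6.91 CPM in poor cells, and in C1q-rich cells at 0.262 and 0.774 CPM. Mgl2 and Dcstamp, in contrast, were also present in C1q-rich cells, at 245 and 236 CPM and at 179 and 174 CPM. Cd209a was not particular to the rich cells either, since Flt3-positive cells held 67.8 and 120 CPM of it. These genes were named after their values were seen.

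The class II loading genes H2-DMa and H2-DMb1, which load peptide onto class II and were not used to draw the line, lay on the same side as the 4 genes that were. H2-DMa stood at 80.5 against 918 CPM in poor and rich control cells and at 147 against 910 CPM in haplodeficient cells. H2-DMb1 stood at 94.0 against 553 CPM and at 76.0 against 608 CPM. Rich cells of the 2 libraries thus carried near-equal levels of both genes.

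Since class II genes move together across the gated cells, the promoters of H2-Aa and H2-Eb1 are shown, with a Y box core (the hexamer GATTGG, a known element of class II promoters) in capitals. They are RefSeq sequence of GRCm38.p6, read 5′ to 3′ along the gene, H2-Aa from chr17:34287843-34287922 (minus strand) and H2-Eb1 from chr17:34305757-34305836 (plus strand).
H2-Aa: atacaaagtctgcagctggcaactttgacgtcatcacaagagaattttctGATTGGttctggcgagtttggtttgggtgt
H2-Eb1: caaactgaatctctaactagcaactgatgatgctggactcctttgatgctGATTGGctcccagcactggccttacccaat
The first capital lies 49 bases before the annotated start of H2-Aa and 60 bases before that of H2-Eb1. Searched on both strands of the 250 bases before the start, the hexamer was present in 6 of the 9 MHC class II list genes with a promoter sequence (66.7%) and in 16.6% of 27025 genes. Such a match is a description of letters and not of binding.

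**Figure D3:**
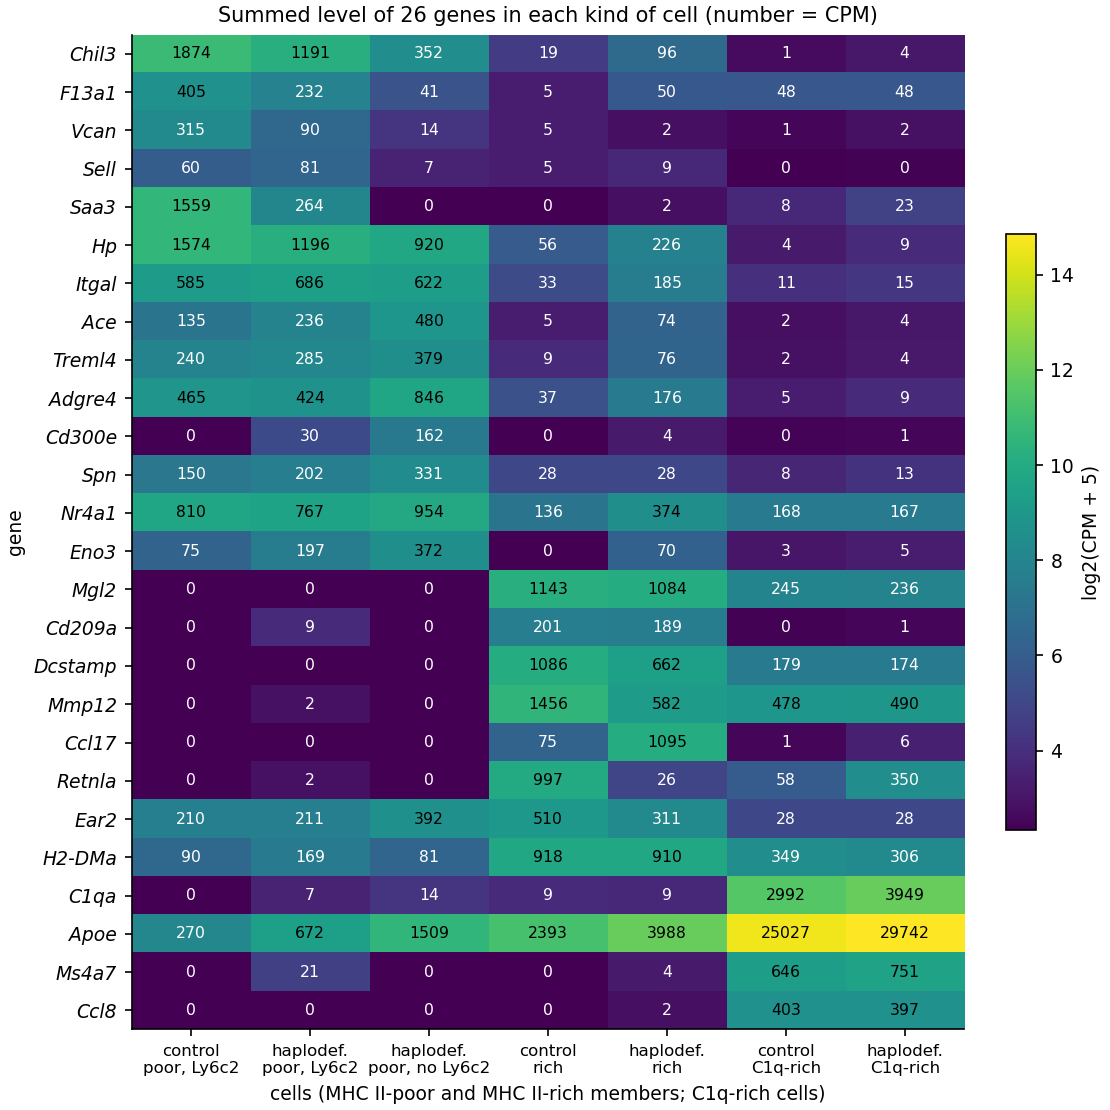
Rows are 26 genes and columns are gated cells by range, Ly6c2 and library, followed by C1q-rich cells. Each cell of the grid prints the summed CPM and is coloured by log2(CPM + 5). Chil3 falls from 1874 CPM at the left to 1 CPM in C1q-rich control cells, Mgl2 and Dcstamp are at 0 in the 3 MHC II-poor columns, and Ms4a7 stands at 646 and 751 CPM in the C1q-rich columns.

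Within the MHC II-poor cells of the haplodeficient library, the 33 cells without Ly6c2 differed from the 65 cells with it at genes known from both kinds of monocyte. Of 3008 genes, 71 were higher without Ly6c2 (2.36%) and 41 were lower (1.36%). The split rests on a gate gene, and by the gate every cell without Ly6c2 carried Ccr2. F13a1 stood at 40.6 CPM without and 232 CPM with Ly6c2, Vcan at 13.5 and 90.4 CPM, and Chil3 at 352 and 1191 CPM. In the other direction, Cd300e, a receptor of non-classical monocytes, stood at 162 and 30.1 CPM. Fcgr4, an activating Fc receptor of the same cells, stood at 142 and 32.5 CPM, and Cd36, a scavenger receptor, at 318 and 67.2 CPM. The 71 genes also held inflammatory ones, such as Il1b (3734 and 1671 CPM), Cxcl2 and Tnf. The control library had 1 MHC II-poor cell without Ly6c2, so it allows no such comparison.

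Other genes of non-classical monocytes were present on both sides. Ace, angiotensin-converting enzyme, stood at 480 CPM without and 236 CPM with Ly6c2, Adgre4 at 846 and 424 CPM, and Nr4a1 at 954 and 767 CPM. Spp1, osteopontin, stood at 2097 and 109 CPM, but 288 of its 357 UMIs in MHC II-poor cells came from 1 cell, and of the 111 UMIs of G0s2, a lipase inhibitor at 514 and 81.1 CPM, 69 came from 1 cell. Cells without Ly6c2 were shallower, with a median of 4242 against 6186 UMIs, and a cell with few UMIs can miss the gene.

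Against C1q-rich cells of the same library (a complement sum of 20 or more, 832 and 1405 cells), the gated cells held more of several genes of circulating monocytes and less of genes of resident or matured macrophages. Of 2956 genes, 133 were higher in the gated cells in both libraries (4.5%) and 110 were lower in both (3.72%). The complement genes and the gate genes were left out, since they drew both populations. Chil3 stood 5.69 and 5.82 higher on the log2 scale, Hp 5.11 and 5.36, Adgre4 3.70 and 4.47, Ifitm6 3.45 and 4.27, Itgal 3.27 and 4.29, and Ceacam1 3.42 and 3.56.

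Macrophage genes lay on the other side. Ccl8, a chemokine of tissue macrophages, was at 0 and 0.714 CPM in the gated cells against 403 and 397 CPM in C1q-rich cells. Ms4a7, a membrane protein of macrophages, was at 0 and 8.57 CPM against 646 and 751 CPM. Gpnmb, a glycoprotein of lipid-laden and repairing macrophages, was at 5.00 and 1.43 CPM against 386 and 827 CPM. Apoe, the lipid carrier, was at 1439 and 1812 CPM against 25027 and 29742 CPM. Pf4, Ccl7, Ccl12, Syngr1, Hpgds and Atp6v0d2 completed the 10 lowest. Igf1, a growth factor of repair, gave 8 and 7 UMIs in all gated cells, against 210 and 300.2 CPM in C1q-rich cells.

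Mixed barcodes carried part of the higher set. Without them 109 of the 133 higher genes and 84 of the 110 lower genes were still past the size rule. The 24 higher genes that were lost included Kdr, Flt1, Emcn, Ehd3, Eng, Ptprb and Pecam1, which are genes of endothelial cells. Kdr, a receptor for VEGF, gave 129 UMIs in the gated control cells, 128 of them in mixed barcodes, and 207 in the haplodeficient cells, all in mixed barcodes. Ehd3 gave 65 of 65 and 217 of 218 UMIs there.

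**Figure D4:**
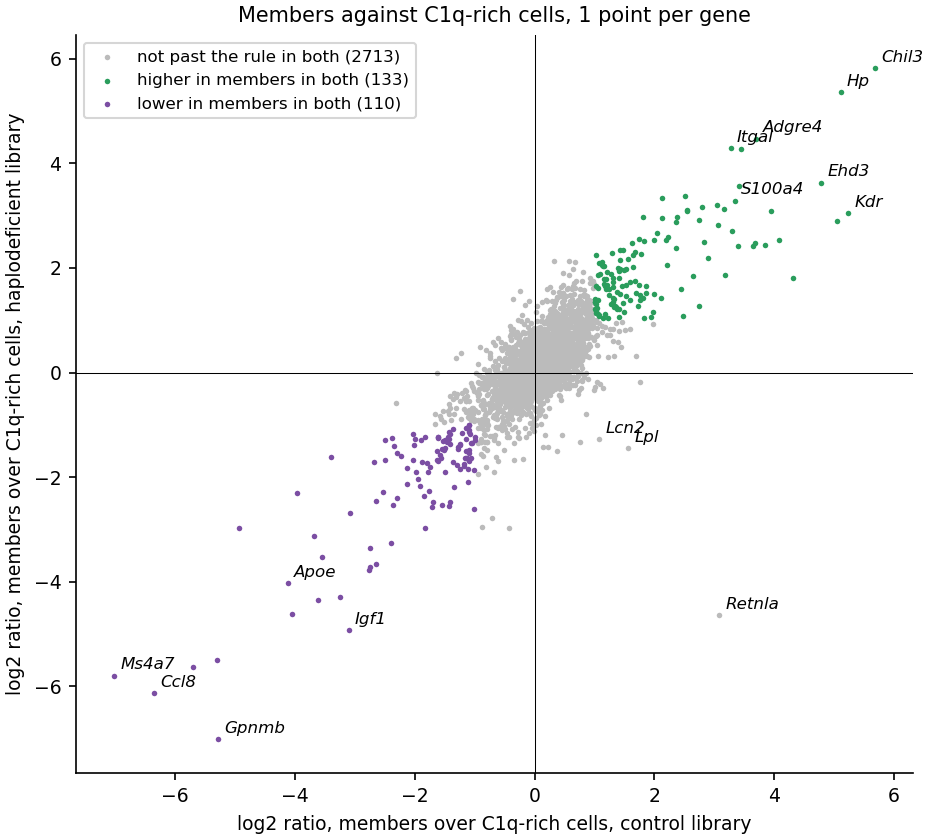
Each point is 1 of 2956 genes, placed by its log2 ratio of gated over C1q-rich cells in the control library (horizontal) and in the haplodeficient library (vertical), with green for the 133 genes higher in both and purple for the 110 lower in both. Chil3 and Hp lie farthest out at the upper right, Gpnmb, Ms4a7 and Ccl8 at the lower left, and Retnla, Lpl and Lcn2 lie below the horizontal line and right of the vertical one.

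Between the libraries, 100 of 3372 genes were higher in the gated haplodeficient cells (2.97%) and 105 were lower (3.11%) by the size rule, which needs a log2 ratio of at least 1 and counting intervals that do not overlap. The median over all these genes was 0.06. Without the mixed barcodes, 105 of 3085 genes were higher (3.4%) and 98 lower (3.18%), and 73 and 56 of them were shared with the first sets. Within MHC II-poor cells 61 of 3077 genes were higher (1.98%) and 61 lower (1.98%), with 21 and 5 shared. Within MHC II-rich cells 76 of 2867 were higher (2.65%) and 80 lower (2.79%), with 34 and 34 shared. Of the 100 higher genes, 90 had enough counts within the poor range, and 36 of those stood under 0.5 there. Many of the values below are therefore given within the ranges too.

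Non-classical monocyte genes had the highest median of the 18 lists over all gated cells, though not within the MHC II-poor range. Of 13 eligible genes 10 were higher in the haplodeficient cells past the rule and none lower, with a list median of 1.31 against 0.06 over all genes. That median was 1.18 without mixed barcodes, 1.00 in MHC II-rich cells and 0.35 in MHC II-poor cells, where 3 of 13 genes were past the rule. Ace gave 17 UMIs in 6 of 43 control cells (42.5 CPM, interval 24.7 to 68.0) and 243 UMIs in 69 of 171 haplodeficient cells (173 CPM, interval 152 to 197). Its log2 ratio was 1.91 over all gated cells, 0.47 in the poor and 3.03 in the rich range, the last on 1 control UMI. Treml4, a receptor of the same cells, gave 21 and 239 UMIs, with log2 ratios of 1.61, 0.27 and 2.50, the last on 2 control UMIs.

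Within this list Eno3 and Fabp4 were past the rule in MHC II-poor cells, on few control UMIs. Eno3, the muscle enolase, gave 6 UMIs in 3 control cells and 187 UMIs in 62 haplodeficient cells, and its log2 ratio was 2.79 in all gated cells and 1.53 in poor cells, where it rested on 6 control UMIs. Fabp4, a fatty acid carrier, stood at 255 and 272 CPM over all gated cells, but 99 of its 102 control UMIs were in mixed barcodes. Without those barcodes its log2 ratio was 3.08, and it was 1.97 in poor cells, each on 3 control UMIs. Neither gene had a UMI in the 26 MHC II-rich control cells. The 57 haplodeficient cells of that range held 32 UMIs of Eno3 and 30 of Fabp4. The ratios in that range thus depend on the 5 CPM added. Both genes averaged too low a CPM there for the size rule to apply. Endothelial cells express Fabp4 as well. Ear2 lay on the other side, at 317 and 214 CPM, short of the rule.

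Genes of circulating classical monocytes that the gate did not use had a list median of 0.59, with 2 of 20 genes higher and 1 lower past the rule, but the median was -0.03 among MHC II-poor cells. Clec4e, a lectin that senses damaged cells, gave 55 and 469 UMIs (137 and 335 CPM), with a log2 ratio of 1.25 in all gated cells, 0.14 in the poor and 1.32 in the rich range. Ms4a4c stood at 107 and 228 CPM, with 1.05, -0.04 and 1.39. Fn1, fibronectin, was the gene on the lower side, at 287 and 373 UMIs (717 and 266 CPM), with a log2 ratio of -1.41 in all gated cells, -0.90 in the poor and -1.89 in the rich range.

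Within the poor range, 9 of 22 eligible classical genes had a log2 ratio above 0. Their median of -0.03 was near that of all genes there, -0.04. Some stood higher in the 12 control cells, mostly short of the rule. Others, such as Tmem176a (0.72) and Smpdl3a (0.38), stood higher in the haplodeficient cells of that range. Chil3 had a log2 ratio of -0.78 in the poor range (1678 and 977 CPM), F13a1 of -0.97 (362 and 183 CPM) and Hp of -0.47 (1557 and 1126 CPM). Vcan, at 282 and 70.8 CPM, passed the rule with -1.92, on 21 and 41 UMIs. In the rich range Chil3, F13a1 and Hp stood higher in haplodeficient cells, where 16 of 57 cells had Ly6c2 against 2 of 26 in the control. Their log2 ratios there were 2.08, 2.50 and 1.92, on 4, 1 and 12 control UMIs, and Vcan had 1 UMI in each library.

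Genes of the type I interferon response lay mostly on the higher side in the haplodeficient library, in both ranges. Of 19 eligible genes 7 were higher past the rule and none lower, and 3 of 18 in poor and 3 of 12 in rich cells were higher past it. The exception to a log2 ratio above 0 was Phf11b at -0.15, and the list median was 0.71 (0.78 without mixed barcodes, 0.78 in poor and 0.50 in rich cells). Ifi27l2a, an interferon-induced mitochondrial protein, gave 305 UMIs in 38 of 43 control cells (762 CPM, interval 679 to 852) and 3183 UMIs in 158 of 171 haplodeficient cells (2272 CPM, interval 2194 to 2352). Its log2 ratio was 1.57 in all gated cells, 1.15 in the poor range and 1.25 in the rich range. Bst2, tetherin, which holds budding virus at the cell surface, gave 37 and 409 UMIs (92.4 and 292 CPM), with 1.61, 1.36 and 1.55.

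Other members of that list followed with smaller differences within the ranges. Ifitm3, a membrane protein that blocks viral entry, had UMIs in 42 of 43 and 171 of 171 cells, at 1372 and 3428 CPM, with a log2 ratio of 1.32 in all gated cells, 0.93 in poor and 1.10 in rich cells. Zbp1, a sensor of nucleic acids, stood at 35.0 and 101 CPM, with 1.41, 0.86 and 0.67. Irf7, the factor that amplifies interferon production, stood at 45.0 and 116 CPM, with 1.27, 0.76 and 0.58. Of the 12 eligible interferon-gamma response genes none was past the rule, with a median of 0.43. Without mixed barcodes none of 13 was higher and 2 were lower, as in rich cells, and 1 of 9 was higher in poor cells. The 2 lower genes were Iigp1, an interferon-induced GTPase, and Cxcl9, a chemokine. Iigp1 had a log2 ratio of -0.82 in all gated cells, where 146 of 180 control and 353 of 355 haplodeficient UMIs lay in mixed barcodes, of -4.15 without those and of -4.52 in rich cells, where its 34 control UMIs came from 1 cell. Cxcl9 gave 28 UMIs in 1 control cell and 8 UMIs in 2 haplodeficient cells, with -3.70 without mixed barcodes. C1q-rich cells also held more Ifi27l2a (506 and 909 CPM) and Bst2 (192 and 482 CPM) in the haplodeficient library.

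The promoter of Bst2 is shown because its level differed past the rule in both ranges. Capitals mark an interferon element (GAAANNGAAA), 130 bases before the annotated start, in RefSeq sequence of GRCm38.p6 at chr8:71537573-71537652 (minus strand).
Bst2: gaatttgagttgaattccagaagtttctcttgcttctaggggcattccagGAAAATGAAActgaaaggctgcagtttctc
On both strands of the 250 bases before the start, this motif was present in 13 of the 29 listed type I interferon genes with a promoter sequence (44.8%) and in 3.46% of 27025 genes. Ifi27l2a, Ifitm3, Zbp1 and Irf7 were not among the 13.

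Inflammatory cytokine and chemokine genes had a median of 0.77, with 4 of 14 genes higher past the rule and none lower (1.08 in poor and 0.66 in rich cells). Without mixed barcodes the median was 0.47, with 5 of 16 higher and 1 lower. In poor cells 5 of 12 were higher and none lower, and in rich cells 2 of 14 were higher and 2, Ccl6 and Cxcl9, lower (-1.16 and -3.56). Ccl2, which draws Ccr2-bearing monocytes, gave 9 UMIs in 4 control cells (22.5 CPM, interval 10.3 to 42.7) and 212 UMIs in 30 haplodeficient cells (151 CPM, interval 132 to 173), of which 62 came from 1 cell. Ccl3, an inflammatory chemokine, gave 7 and 127 UMIs, with a log2 ratio of 2.09. Ptgs2, the inducible cyclooxygenase, gave 12 and 144 UMIs, with 1.62. None of the 12 MHC II-poor control cells held a UMI of Ccl2, Ccl3 or Ptgs2. In the 98 MHC II-poor haplodeficient cells the same genes gave 55, 86 and 58 UMIs in 13, 27 and 15 cells.

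Il1b, the main inflammatory cytokine of the list by level, differed less. It had a UMI in 28 of 43 control cells (1144 CPM) and in 142 of 171 haplodeficient cells (2022 CPM), with a log2 ratio of 0.82 in all gated cells, 0.60 in poor and 0.86 in rich cells, short of the rule. Ccl6 and Ccl9, at 899 and 515 CPM and at 455 and 232 CPM, lay lower in the haplodeficient cells, also short of the rule. Within the ranges Ccl6 was higher past the rule in poor cells (1.22) and lower past it in rich cells (-1.16), and Ccl9 had -0.02 and -0.74. Among NF-kappaB feedback genes 2 of 22 were higher past the rule and none lower, with a median of 0.38. In rich cells 7 of 21 were higher and none lower (median 0.69), in poor cells 3 of 22 (0.46) and without mixed barcodes 3 of 22 (0.48). Traf1, an adaptor of TNF receptors, gave 26 and 298 UMIs, with 1.64 in all gated cells, 1.88 in poor and 1.41 in rich cells.

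For entry into tissue, the adhesion and migration list had 2 of 23 genes higher and none lower, with a median of 0.21 and of -0.02 in MHC II-poor cells. Cxcr4, the receptor for Cxcl12 that holds cells in marrow and tissue, gave 11 UMIs in 9 control cells (27.5 CPM) and 140 UMIs in 71 haplodeficient cells (99.9 CPM), with a log2 ratio of 1.69 in all gated cells, 0.71 in poor and 1.62 in rich cells. Itgal, at 150 and 386 CPM, had 1.34 in all gated cells, -0.00 in poor and 2.33 in rich cells. Ccr2 itself, a gate gene, stood at 530 and 400 CPM.

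MHC class II genes had a median of -0.53, with 0 of 12 past the rule. The medians within the ranges were 0.66 (poor, 2 of 10 higher past the rule) and 0.14 (rich, 0 of 13). The ranges were drawn on Cd74, H2-Aa, H2-Ab1 and H2-Eb1, which are in this list, so those medians are no independent reading. MHC class I genes had 0 of 15 past the rule and a median of 0.59, and H2-D1, a classical class I chain, stood at 1047 and 1946 CPM.

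**Figure D5:**
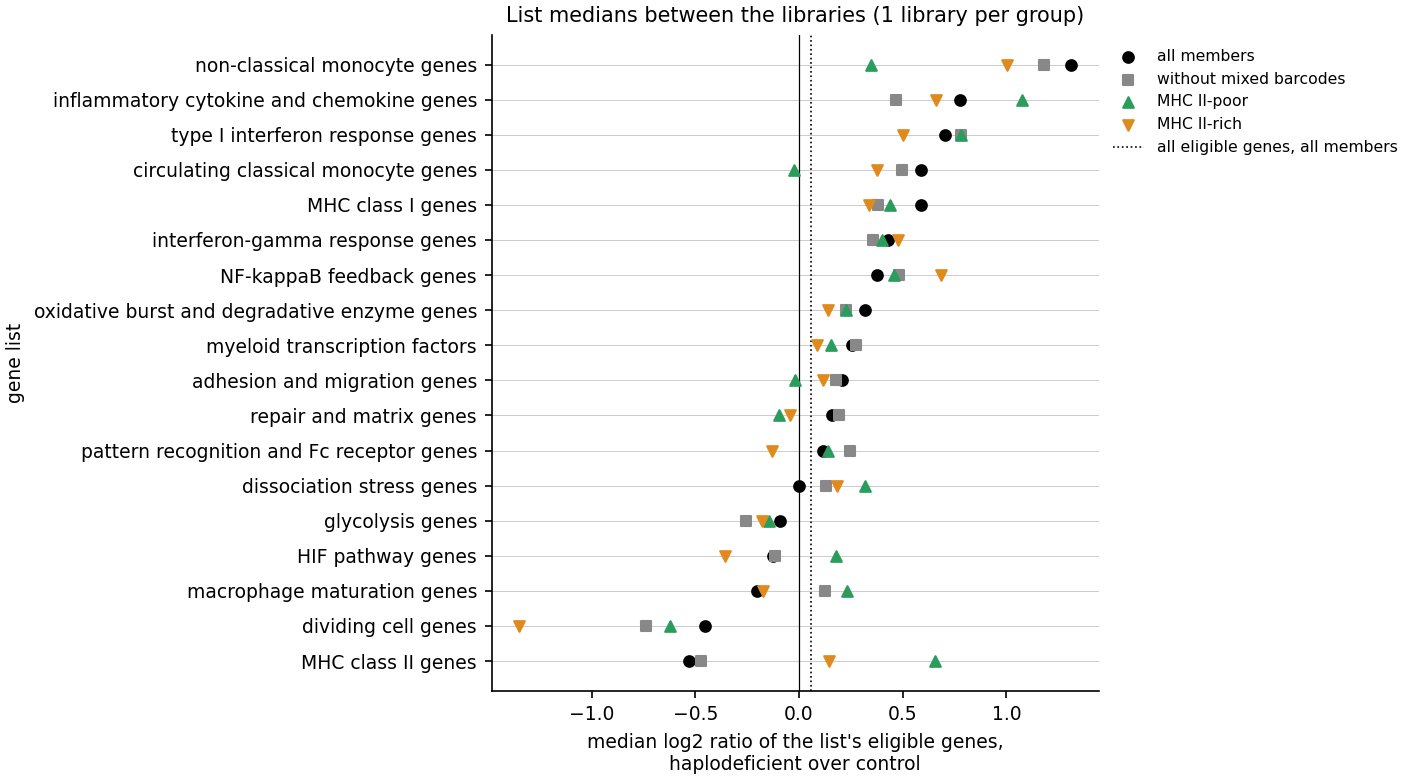
For each of 18 gene lists, markers give the median log2 ratio (haplodeficient over control) of its eligible genes in all gated cells, without mixed barcodes, in MHC II-poor and in MHC II-rich cells, with a dotted line at the median of all eligible genes, 0.06. The non-classical list is at 1.31 in all cells and at 0.35 in poor cells, the type I interferon list lies between 0.50 and 0.78 in all 4, and the class II list is at -0.53 in all cells and above 0 in both ranges.

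Genes of repair and matrix had 1 of 19 higher and 4 lower past the rule, with a median of 0.16, and of -0.10 in poor and -0.04 in rich cells. Retnla, a resistin-like protein of alternatively activated macrophages, gave 213 UMIs in 5 control cells, 144 of them in 1 cell, and 13 UMIs in 4 haplodeficient cells. Mmp12, macrophage elastase, gave 325 UMIs in 20 cells (812 CPM) and 269 UMIs in 21 cells (192 CPM), with a log2 ratio of -2.05 in all gated cells and -1.32 in the rich range that holds it. Hbegf gave 132 and 122 UMIs, with -1.86 in all gated cells and 0.66 without mixed barcodes. Tgm2, a crosslinking transglutaminase, was the gene on the higher side, with 25 and 311 UMIs and a log2 ratio of 1.75 (1.94 in poor and 1.10 in rich cells).

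Macrophage maturation genes had 2 of 22 higher and 2 lower, with a median of -0.20 that was 0.12 without mixed barcodes. Mrc1, the mannose receptor, stood at 357 and 113 CPM, with -1.61 in all gated cells and -0.91 in the rich range. Among myeloid transcription factors 3 of 20 were higher, among them Nr4a1 (1.04 in all gated cells, 0.07 in poor and 1.43 in rich cells) and Cebpb (1.01, 0.17 and 0.94).

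HIF pathway genes form the list nearest to the deleted gene's known function. Over all gated cells 0 of 10 eligible genes were past the rule in either direction, with a median of -0.13. In poor cells 0 of 7 were higher and 1 lower past it (median 0.18), and in rich cells 0 of 8 were higher and 1 lower (median -0.36). Hif1a stood at 190 and 146 CPM, Vegfa at 94.9 and 45.0 CPM and Slc2a1, the glucose transporter, at 72.5 and 35.0 CPM. Vegfa had a log2 ratio of -1.32 without mixed barcodes, past the rule, on 34 and 46 UMIs. Glycolysis genes had 0 of 14 past the rule and a median of -0.09. Without mixed barcodes 1 of 15 glycolysis genes was lower past the rule, and the median was -0.26. Egln3 (chromosome 12, 54178981 to 54203860, minus strand) gave 1 UMI in 1 control cell and 10 UMIs in 7 haplodeficient cells, 4.09% of them. In tubule cells 2.25% and 3.78% had an Egln3 UMI, so these cells neither check the deletion nor show a level above background.

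Signs of division were more frequent in the control cells. Mki67, a protein of dividing nuclei, had a UMI in 9 of 43 control cells (20.9%) and in 7 of 171 haplodeficient cells (4.09%). At 2500 UMIs per cell the counts were 7 of 43 and 4 of 166, and tubule cells had shares of 1.43% and 2.52% unthinned. Of the 9 control cells with Mki67, 7 were MHC II-rich. MHC II-rich cells made up 60.5% of the gated control and 33.3% of the gated haplodeficient cells, and the part of this in the Mki67 shares was not tested. Of the 4 eligible genes of the division list none was higher and 1 lower past the rule. That gene was Stmn1, a tubulin-binding protein, with 44 and 70 UMIs and a log2 ratio of -1.06. In rich cells 3 of 4 were lower past the rule (median -1.35), and in poor cells 0 of 3 were past it (median -0.62). Hist1h2ap, a replication-dependent histone, gave 56 UMIs in 5 control cells, 39 of them in 1 cell, and 6 UMIs in 6 haplodeficient cells.

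Oxidative burst genes had 1 of 20 higher past the rule and none lower, with a median of 0.32, and pattern recognition genes 3 of 19 higher and none lower, with a median of 0.11. Without mixed barcodes 0 of 20 oxidative burst genes were past the rule, and 2 of 22 pattern recognition genes were higher. Slc7a11, the cystine transporter, stood at 102 and 216 CPM. Among dissociation stress genes 0 of 17 were higher and 1 lower, and the median was -0.00. That lower gene was Hspa1b, an inducible heat shock protein, at 130 and 26.4 CPM. Without mixed barcodes 0 of 16 dissociation stress genes were higher and 2 were lower.

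The 10 highest genes between the libraries were Slc12a1, G0s2, Ccl17, Eno3, Ly6i, Cyth3, Ccl2, Cyp4f18, Gm26740 and Ccl3. Ly6i, a neighbour of Ly6c2 in the same gene family, gave 5 UMIs in 4 control cells (12.5 CPM) and 158 UMIs in 59 haplodeficient cells (113 CPM), with log2 ratios of 2.75 in all gated cells, 3.14 in poor and 2.46 in rich cells, the latter on 1 and 3 control UMIs. Cyp4f18, a leukotriene-degrading enzyme of myeloid cells, gave 9 UMIs in 3 cells and 176 UMIs in 88 cells, with 2.25, 3.54 (on 1 control UMI) and 1.21. These 2 genes were spread over many cells, and so was Gm26740, with UMIs in 6 and 87 cells.

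Other genes of the top 10 rested on few barcodes. Ccl17, a chemokine of dendritic cells, gave 17 UMIs in 5 control cells and 505 UMIs in 17 haplodeficient cells, 266 of them in 1 cell. G0s2 gave 3 and 139 UMIs, a ratio of CPM of 13.2 (interval 4.44 to 65.0), with 69 in 1 cell. Slc12a1, the salt transporter of the thick ascending limb, gave 2 and 138 UMIs, a ratio of 19.7 (interval 5.36 to 164). Of those 138 UMIs, 130 were in mixed barcodes, and its log2 ratio of 3.37 was 0.58 without them.

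The 10 lowest genes were Retnla, Kap, Hist1h2ap, Spink12, Itgb6, Myo3b, Lcn2, Rbms3, Gpx3 and Errfi1. Kap, an androgen-regulated gene of proximal tubule cells, gave 83 UMIs in 37 of 43 control cells, at most 5 in a cell, and 4 UMIs in 4 of 171 haplodeficient cells. Over all other kept cells it stood at 7512 and 409 CPM. Gpx3, a secreted peroxidase of the same tubule cells, stood at 152 and 23.6 CPM in the gated cells and at 4565 and 725 CPM elsewhere. Kap and Gpx3 in the gated cells thus moved with their level in the rest of each library. Once an estimate of free RNA was subtracted, no UMI of either gene was left in either library. Their log2 ratio of 0 then compared only the 5 CPM added, and where these UMIs came from was not tested.

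Spink12, Itgb6, Myo3b and Rbms3 came from mixed barcodes. They gave 41 of 41, 49 of 50, 40 of 41 and 76 of 76 control UMIs there, and without those barcodes their log2 ratios were 0.47, -0.51, -0.10 and 0.47. Lcn2, lipocalin-2, gave 690 and 316 UMIs, with 677 and 295 in mixed barcodes, and 619 of the control UMIs in 1 barcode. Errfi1 stood at -2.43 with and -1.38 without the mixed barcodes. Mitochondrial genes were lower past the rule for 9 of 12 in all gated cells and for 4 of 12 without mixed barcodes.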

How the data were processed

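Single-cell 3′ RNA libraries of mouse kidney, 1 per group, were aligned to mm10 per the submitters' processing notes. The authors deposited raw UMI counts per gene and barcode for all barcodes, and per the file headers Cell Ranger, version 4, made them. Barcodes with at least 500 UMIs, 200 genes and at most 50% mitochondrial UMIs were kept. Doublets were not removed. Scrublet in scanpy 1.11.5, set to 0.8% per 1000 cells, was an alternative. Sums over cells were scaled to CPM with numpy 2.4.6, pandas 2.3.3 and scipy 1.17.1, with exact Poisson and Clopper-Pearson 95% intervals.

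The size rule asked for a log2 ratio of at least 1 with 5 CPM added and intervals that did not overlap, in genes averaging 50 CPM or more over the sums compared, with 30 UMIs or more in all. Genes used by the gate were left out. Calculations were tested on simulated data. No test between groups was possible. Named genes were those of the gate and Egln3, the 10 highest and lowest between libraries and against C1q-rich cells, the 15 leading genes, up to 3 highest, lowest and most abundant of each of 18 pathway lists, and 17 marker lists. Genes outside this rule (Saa3, Mgl2, Dcstamp, Cd36, Fcgr4, Gsr, Lpl and Kdr among them, where no list holds them) were chosen after their values were seen. The gated cells and the lists were chosen with earlier results of these data known. Alternatives covered cell filters, the gate, depth, scaling, pseudocount, eligibility, doublets and free RNA. Gene coordinates came from GENCODE M21 on GRCm38, which held 99.8% of the gene IDs. Some items are not reported here.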

Additional observations from a re-analysis of the deposited data

Results flagged for a closer look

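Against C1q-rich cells, 3 genes were past the size rule in opposite directions in the 2 libraries. Retnla stood at 532 against 58.2 CPM in the control library and at 9.28 against 350.2 CPM in the haplodeficient library, log2 ratios of 3.09 and -4.64 and a difference of -7.72. It rested on 213 and 13 UMIs, and 144 of the former came from 1 cell. Lpl, lipoprotein lipase, stood at 582 against 193 CPM and at 113 against 318 CPM, log2 ratios of 1.57 and -1.45 and a difference of -3.02, on 233 and 158 UMIs. Lcn2 stood at 1724 against 814 CPM and at 226 against 554 CPM, log2 ratios of 1.08 and -1.28 and a difference of -2.36. Of its 690 and 316 UMIs, 677 and 295 were in mixed barcodes. With 1 library per group these differences were not tested.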

How the results depend on the processing

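The excess of gated cells in the haplodeficient library, 1.25 percentage points of kept cells, kept its direction in all 7 alternatives tried, at 1.08 to 1.33 points in 5 of them. It was 0.523 points when Ly6c2 and Ccr2 were both required and 0.917 points when cells were thinned to 2000 UMIs. The counts of higher and lower genes between libraries, 100 and 105, were 162 and 199 without doublets, 61 and 61 in MHC II-poor cells, 172 and 275 with eligibility at 10 CPM, and 17 and 24 at 200 CPM. With both genes required they were 97 and 67, of which 9 and 5 were shared with the 100 and 105. Against C1q-rich cells the counts of 133 and 110 were 27 and 29 at 200 CPM and 347 and 183 in MHC II-poor cells. List medians changed sign for classical monocyte genes (-0.28 with both genes required, -0.025 in MHC II-poor cells) and adhesion genes (-0.15 and -0.018). With both genes required, log2 ratios changed sign for Errfi1 (1.06), Rbms3 (3.58), Clec4e (-0.45), Ms4a4c (-0.54), Treml4 (-0.33), Fabp5 (-0.50), Axl (0.31), Nr4a1 (-0.20), Cebpb (-0.040), Clec4a1 (-0.00739), Hbegf (4.09) and Hspa1b (0.31). With no complement UMI allowed they did so for Lcn2 (2.41), Myo3b (0.76) and Itgb6 (0.84), and in MHC II-poor cells for Ms4a4c (-0.037), Fabp5 (-0.22) and Itgal (-0.0030). The cause was not tested. The MHC II ranges and mixed barcodes were defined after seeing the data. The 43 control cells, 12 of them MHC II-poor, limit all comparisons. No paired analysis was possible because each group has 1 library, and for the same reason no library could be left out.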

Other observations

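Among pattern recognition genes, the C-type lectin receptors of the gated cells did not move together. Clec4a1 gave 24 UMIs in 14 control cells and 204 UMIs in 95 haplodeficient cells, with a log2 ratio of 1.21, of 0.25 in MHC II-poor and 1.11 in MHC II-rich cells. Clec4a3 gave 57 and 435 UMIs, with 1.10, 0.76 and 0.29. Clec4a2, a neighbour of the same family, lay on the other side at 190 and 99.2 CPM, short of the size rule. Fcer1g, the shared signalling chain of Fc receptors, had a UMI in 43 of 43 and 168 of 171 cells, at 1634 and 2438 CPM.

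Type 2 dendritic cell markers outside the gate summed to 1737 and 1690 CPM in MHC II-rich cells and to 430 and 409 CPM in MHC II-poor cells. Macrophage markers outside the gate summed to 617 and 1062 CPM in MHC II-poor cells and to 3507 and 4572 CPM in MHC II-rich cells. Both sums were thus higher in the MHC II-rich range of each library, and they were not told apart cell by cell. Itga4, the integrin chain that binds VCAM-1, stood at 1047 and 887 CPM in MHC II-poor cells and at 164 and 349.7 CPM in MHC II-rich cells. C1q-rich cells held 52.6 and 59.9 CPM of it, and Flt3-positive cells 301 and 247 CPM. Dusp16, a phosphatase of stress kinases, had a log2 ratio between libraries of 2.05 in MHC II-poor cells and 0.26 in MHC II-rich cells, and whether these differ was not tested.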
